A study of Mus musculus with 21 samples.

Results

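The 10 genes described here encode the classical MHC class I molecule of the mouse and the machinery that supplies it with peptides. They are H2-K1, H2-D1 and B2m, the transporter and loading genes Tap1, Tap2 and Tapbp, the regulator Nlrc5, and the immunoproteasome subunits Psmb8, Psmb9 and Psmb10. They were taken by symbol. All 10 were listed in each of 4 expression tables, among 20392 genes listed in at least 1 table, and all 10 passed the filter on low values in every comparison.

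RNA was sequenced from mammary tumours and from freshly sorted hematopoietic stem cells (HSC). All mice are labelled MMTV-PyMT, a model in which the polyoma middle T oncogene is driven by the mouse mammary tumour virus promoter. The sedentary controls and the HSC groups carry this genotype too. Tumours came from sedentary and from physically active mice at week 12 and at week 18, with 3 libraries in each of the 4 groups. HSC came from sedentary and from active mice at week 12, and at week 14 from sedentary mice that had been transplanted with cells of an active mouse, again with 3 libraries per group. Transplantation, week and the activity of the donor therefore differ together between transplant HSC and sedentary HSC. The labels call the replicates biological. The strain background, the kind of activity, the number of animals per library and the sorting gate were not given in the sources used here.

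A class I molecule is a heavy chain, such as H2-K1 or H2-D1, paired with beta-2-microglobulin, the product of B2m. Proteasomes cut cytosolic proteins into peptides, and Psmb8, Psmb9 and Psmb10 replace the constitutive catalytic subunits Psmb5, Psmb6 and Psmb7 in immune cells and after exposure to interferon. The transporter formed by Tap1 and Tap2 carries the peptides into the endoplasmic reticulum, where tapasin, the product of Tapbp, helps to load them. The loaded molecule shows the peptides to CD8 T cells. Nlrc5 is a transactivator that acts at class I promoters through a module of X and Y boxes, and interferon-gamma induces most of these genes, in part through the transcription factor Irf1.

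In the GENCODE M21 annotation of GRCm38, 7 members lie within the MHC on chromosome 17. Tapbp spans 33915899 to 33929292, H2-K1 33996017 to 34000347 and H2-D1 35262730 to 35267499. Psmb9 (34181987 to 34187764) and Tap1 (34187553 to 34197225) are divergent neighbours whose annotated spans overlap, so reads of the overlap are uncertain without a stated strand setting, and Psmb8 and Tap2 follow downstream of Tap1. B2m is on chromosome 2, and Nlrc5 and Psmb10 are on chromosome 8. H2-K1 and H2-D1 resemble other class I genes. Of all 50-base windows in their transcripts, 9.63% of those of H2-K1 and 12.8% of those of H2-D1 also occurred in a transcript of another gene, mainly each other and H2-Q genes, so reads could be split between them. For each of the other 8 members this share was 2.87% or less.

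Promoter sequences are shown for the 3 genes whose products form the class I molecule, since these genes varied together in the tumours. RefSeq windows on GRCm38.p6, from 250 bases before to 50 bases after a start site, were at hand for 8 of 10 members. There was no entry for Nlrc5 or Tap2. The windows were searched on both strands for a kappa-B site (GGGATTCCC), the core of an interferon response element (GAANNGAAA), a gamma-activated site (TTCNNNGAA), the core of an X2 box (TGACG) and an inverted CCAAT box (ATTGG), which is also the core of the Y box. Capitals mark matches, each stretch is written 5′ to 3′ on the strand of its gene, and no printed matches overlapped.

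H2-K1 (chr17:34000355-34000461, minus strand, upstream of the annotated gene): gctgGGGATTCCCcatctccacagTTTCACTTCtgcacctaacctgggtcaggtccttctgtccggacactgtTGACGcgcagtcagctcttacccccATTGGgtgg
H2-D1 (chr17:35262924-35262952, plus strand, within exon 1 of the GENCODE gene model): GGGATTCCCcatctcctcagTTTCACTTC
B2m (chr2:122147605-122147642, plus strand, upstream of the annotated gene): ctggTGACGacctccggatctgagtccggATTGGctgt

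H2-K1 and H2-D1 held the kappa-B site, the interferon element (as TTTCACTTC, its reverse complement), the X2 core and the inverted CCAAT box in the same order. The X2 core of H2-D1 began at -101 and its first inverted CCAAT box at -76 from the RefSeq start. The B2m window held only the X2 core and the CCAAT box of these motifs. The overlapping windows of Tap1 and Psmb9 also shared an X2 core and a CCAAT box, and the Psmb8 window held a gamma-activated site. Among 32851 promoter windows, the kappa-B site was found in 0.353%, the interferon element in 7.52%, the gamma-activated site in 8.30%, the X2 core in 20.8% and the CCAAT box in 37.4%.

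Values below are normalized reads, that is gene counts divided by 1 factor per library. Tumour libraries held 20838963 to 28973775 reads. HSC replicates 3 held 58500940 to 72417315 reads and the other HSC libraries 16406889 to 24574563. All 6 tumour epithelium markers and all 8 stem cell markers had a value in the tissue they mark. In the HSC, however, the summed value of 7 neutrophil lineage genes (S100a8, S100a9, Ngp, Camp, Ltf, Mpo and Elane), from 53221 to 328031, was above that of the stem cell markers in every library. A sum is led by its highest genes, and in sedentary HSC the mean log2(value + 1) had the reverse order. It was 7.78, 9.11 and 8.64 for the neutrophil genes and 9.05, 9.18 and 9.12 for the stem cell markers. In active and transplant HSC the neutrophil mean was the higher, except for active replicate 2 in the table with transplant HSC (9.33 and 9.36). Active tumour replicate 3 of week 12 stood apart. Its summed B cell markers came to 21236 normalized reads, against 87 to 164 in the other week 12 tumours. The HSC column of active replicate 2 differed between the tables that share this library, at 13107 of 13401 genes and at all 10 members. The active libraries 1 and 3 differed at 4 genes each and at no member. The members' leading values in comparisons with active HSC are therefore given with both columns. Those of the other pathway genes and the plot of fold changes in HSC use the column of the table compared.

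Per kilobase of the principal transcript, the class I chains were the most abundant members in every group. In sedentary tumours of week 12, H2-K1 had a level of 21015 ± 7598 normalized reads per kilobase (SD, n = 3), B2m 18943 ± 4623 and H2-D1 14814 ± 4353. Tapbp followed at 2409 ± 153 per kilobase, and Nlrc5 was lowest at 111 ± 39.5. In sedentary HSC, B2m led with 12757 ± 1556 per kilobase, ahead of H2-K1 with 7669 ± 1061. The catalytic subunits were differently balanced in the sources. Per kilobase, Psmb8 reached 1415 ± 161 in sedentary week 12 tumours and 3224 ± 895 in sedentary HSC, whereas Psmb9 reached 521 ± 113 and 437 ± 131. Its constitutive counterpart Psmb6 had 4015 ± 433 and 4376 ± 788 per kilobase. Tumour and HSC tables were normalized separately, so these levels were not tested against each other.

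Across the 4 tumour groups, sedentary tumours of week 18 had the lowest mean of all 10 members. The highest mean was found in active tumours of week 12 for 6 members, in active tumours of week 18 for 3 (H2-K1, B2m and Psmb8), and in sedentary tumours of week 12 for Tapbp. The libraries of groups next to each other in this order overlapped for every member, and the spread within groups was wide. The place of active tumours of week 12 depended on 1 library. Without their replicate 3, 9 of 10 members had a negative log2 fold change against sedentary tumours of that week. For B2m the order of means was 12174 ± 5523 in sedentary week 18, 16291 ± 3976 in sedentary week 12, 19418 ± 8590 in active week 12 and 21349 ± 3514 in active week 18 tumours (SD, n = 3 each).

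**Figure D1:**
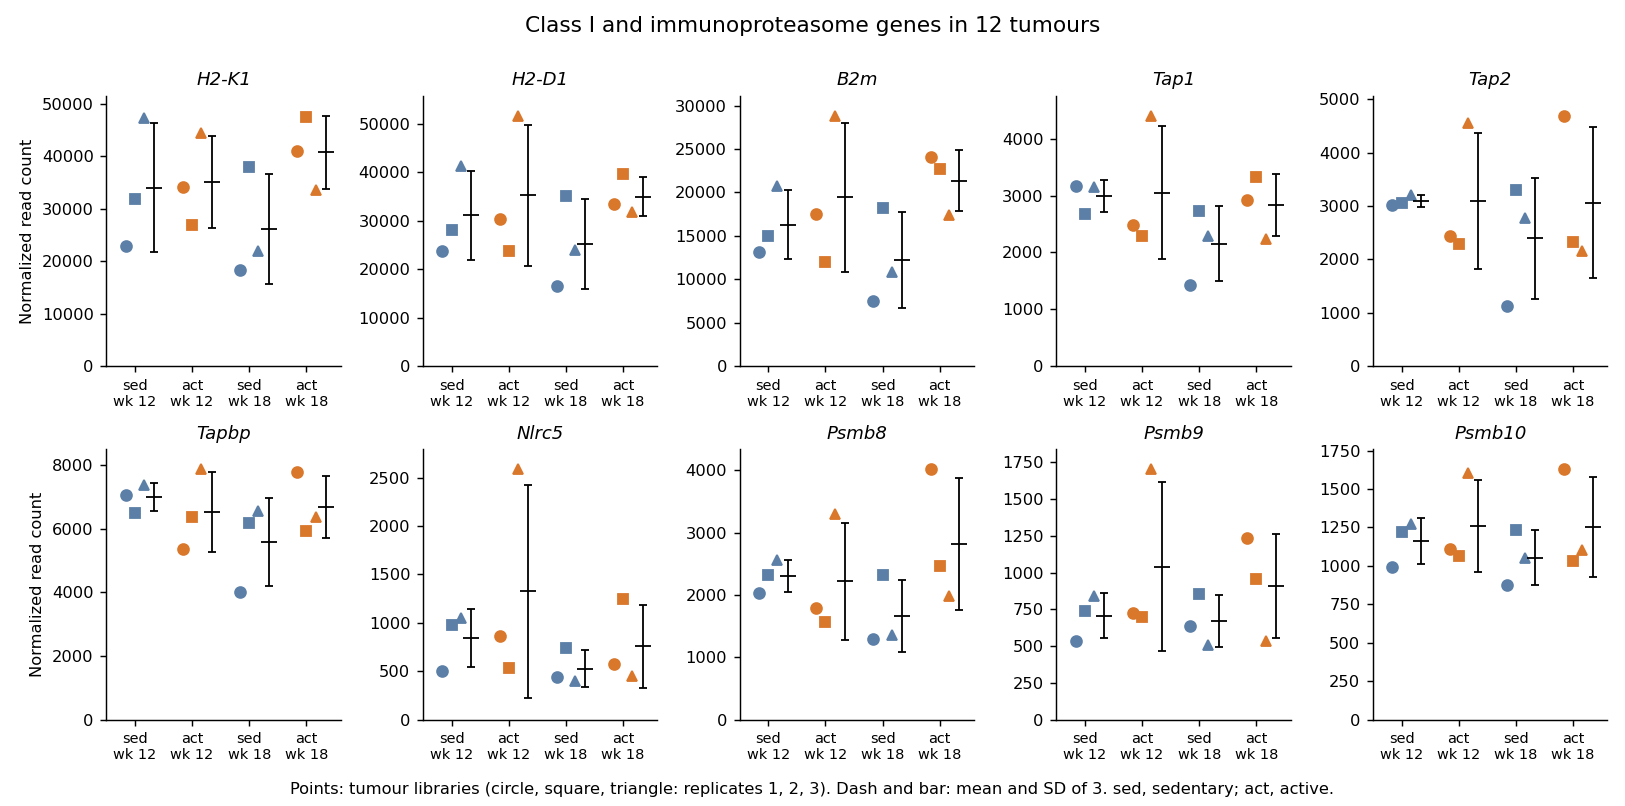
Normalized read count of each member in 12 tumours, on linear axes from 0, with 1 point per library and the mean and SD of 3 beside each group. The third active library of week 12 is the highest of its week for 9 of 10 members, and the first sedentary library of week 18 is the lowest of its week for 8 of 10.

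At week 12 the class I chains did not separate active from sedentary tumours. H2-K1 had 22956, 31845 and 47267 normalized reads in sedentary replicates 1 to 3, and 34135, 26865 and 44381 in active replicates 1 to 3. B2m had 13143, 14971 and 20759 in sedentary and 17474, 11966 and 28814 in active tumours. For both genes the groups overlapped along most of their range. On the log2(value + 1) scale, the fold change was 0.08 (standard error 0.34) for H2-K1 and 0.19 (standard error 0.38) for B2m.

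The largest week 12 differences among the members were those of Psmb9, the immunoproteasome subunit encoded beside Tap1, and of Nlrc5. Psmb9 had 538, 739 and 837 normalized reads in sedentary and 727, 694 and 1702 in active tumours. Nlrc5 had 500, 978 and 1051 in sedentary and 863, 530 and 2587 in active tumours. In both cases only active replicate 3 exceeded the sedentary range. The log2 fold changes were 0.46 (standard error 0.42) for Psmb9 and 0.40 (standard error 0.66) for Nlrc5, and limma adjusted p-values were 0.970 for both. Psmb8 and Tapbp had the lowest log2 fold changes, at -0.13 and -0.11.

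At week 12, 0 of 10 members passed an adjusted p-value of 0.05 with limma, edgeR or DESeq2, and with limma none had an unadjusted p-value under 0.05. Of 19162 genes tested, 0.517% passed. No member was without overlap between the groups, compared with 9.13% of genes tested. The members' median log2 fold change was 0.09, against 0.01 over all genes, with 6 members higher and 4 lower in active tumours. Without active replicate 3 the median was -0.21 and only Psmb9 was higher, and without sedentary replicate 1 the median was -0.02.

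Active replicate 3 of week 12 was the highest of the 6 libraries for 9 members, all but H2-K1. Its summed T cell markers were 16155 normalized reads against 1161 to 2290 in the other week 12 tumours, its leukocyte markers 46185 against 6739 to 14086, its endothelium markers 14761 against 2975 to 5518, its adipocyte markers 138540 against 5724 to 28584, and its tumour epithelium markers 44539 against 70745 to 93939. The summed value of 6 skeletal muscle markers also separated the groups of week 12, at 44161 to 97228 in sedentary and 236 to 990 in active tumours. The part of these cell types in the members' values was not tested. In such bulk samples, fewer cells of a type and less RNA per cell cannot be told apart.

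Type I interferon targets took another course than the members at week 12. All 10 were lower in active tumours with a median of -0.71, 9 of them without overlap between the groups, and none passed the threshold with limma, while 7 had an unadjusted p-value under 0.05, as did 4.09% of all genes. Ifit3, an antiviral effector, had the smallest p-value, with a log2 fold change of -0.88 (standard error 0.15, limma adjusted p-value 0.183). Isg15, a ubiquitin-like protein induced by interferon, had a log2 fold change of -1.10. Active replicate 3, where the members were highest, had the lowest summed value of these targets, 10942 against 15553 to 25037. Irf1, a transcription factor induced by interferon, had a log2 fold change of 0.25. Ifng was not analysed here. Of 10 interferon-gamma targets tested outside presentation, none passed with limma or had an unadjusted p-value under 0.05. Their summed value went the other way in active replicate 3, where it was highest, at 13339 against 8419 to 12404. Cxcl10 and Cxcl9, both T cell attracting chemokines, had the smallest p-values there, with log2 fold changes of 0.50 and 1.37. None of the other pathway genes passed with limma either, and none had an unadjusted p-value under 0.05. The smallest p-values were those of H2-M2 (2.23) and H2-Q2 (-0.64) among the other heavy chains, of the chaperone Canx (-0.27) and the proteasome assembly factor Pomp (-0.24), and of the regulators Irf9 (-0.28) and Rfxap (-0.30). Psmb5, Psmb6 and Psmb7 had log2 fold changes of -0.10, -0.29 and -0.09.

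**Figure D2:**
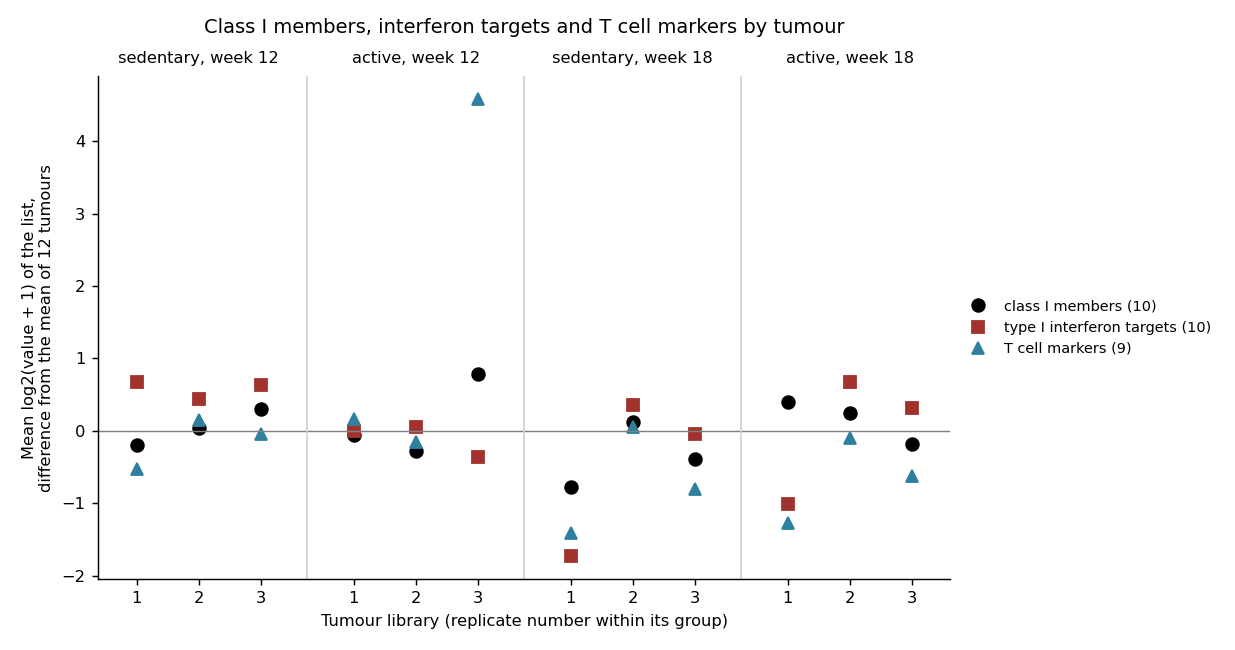
Mean log2(value + 1) of 3 gene lists in each tumour library, as the difference from the mean over 12 tumours. In active replicate 3 of week 12 the members lie 0.78 above that mean and the T cell markers 4.58 above it, while the interferon targets lie 0.36 below it. In active replicate 1 of week 18 the members lie 0.39 above and the interferon targets 1.01 below.

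At week 18 all 10 members had a higher mean in active than in sedentary tumours. B2m had 7458, 18250 and 10816 normalized reads in sedentary replicates 1 to 3 and 24033, 22641 and 17372 in active replicates 1 to 3. Only active replicate 3 lay below the highest sedentary library. B2m had a log2 fold change of 0.89 (standard error 0.37), at a limma adjusted p-value of 0.824 (unadjusted 0.0537, from the fit across all genes).

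The heavy chains and Psmb8 came next. H2-K1 had 18388, 37976 and 22010 normalized reads in sedentary and 40970, 47581 and 33634 in active tumours. H2-D1 had 16502, 35088 and 24000 in sedentary and 33565, 39581 and 31876 in active tumours. For both chains sedentary replicate 2 reached into the active range. The log2 fold changes were 0.70 (standard error 0.32) for H2-K1 and 0.54 (standard error 0.31) for H2-D1. Psmb8 had 1298, 2328 and 1358 in sedentary and 4017, 2457 and 1990 in active tumours, with a log2 fold change of 0.75 (standard error 0.37). Its groups overlapped at sedentary replicate 2 and active replicate 3. Within libraries of the same replicate number, B2m, H2-K1, H2-D1, Psmb8, Psmb9 and Nlrc5 were higher in the active tumour in 3 of 3 pairs. The share of all genes with this pattern was not counted, and the pairing was read from these same data. With the pairs as a block, limma adjusted p-values were 0.689 for B2m, 0.674 for H2-K1, 0.692 for H2-D1 and 0.694 for Psmb8. The 6 members other than these 4 had log2 fold changes from 0.23 for Psmb10 to 0.44 for Nlrc5.

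None of the 10 members passed the threshold at week 18 with limma, edgeR or DESeq2, none had an unadjusted p-value under 0.05 with limma, and 0% of 18939 genes tested with limma passed. No member was without overlap, compared with 13.6% of genes. The members' median log2 fold change was 0.43, against 0.01 over all genes. In the authors' deposited table, 3 of the members had an unadjusted p-value under 0.05, at 0.0243 for B2m, 0.0395 for Psmb8 and 0.0490 for H2-K1, and their adjusted p-values there were 0.592, 0.663 and 0.693. The share of all genes under 0.05 was not counted for that table. With DESeq2 on the recovered reads, 1377 genes had an unadjusted p-value under 0.05, with 16263 genes tested. Without sedentary replicate 1, the lowest library for 8 members, the median was 0.30 and 9 members were higher. Without sedentary replicate 2 it was 0.71, and without active replicate 3 it was 0.67.

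**Figure D3:**
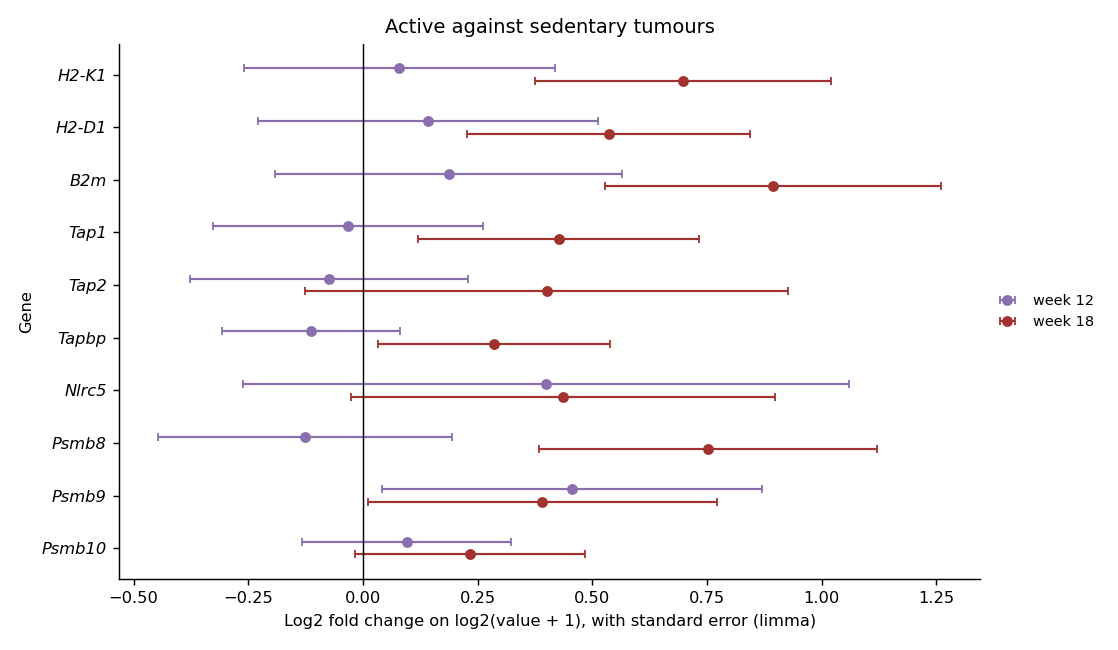
Log2 fold change of each member, active against sedentary tumours, with its standard error from limma, at week 12 and at week 18. At week 18 all 10 points lie above 0, between 0.23 for Psmb10 and 0.89 for B2m, and at week 12 they lie between -0.13 for Psmb8 and 0.46 for Psmb9.

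Other genes of the pathway were measured beside the members at week 18. Of 13 other class I heavy chains tested, 9 were higher and 4 lower in active tumours, with a median log2 fold change of 0.31 and none past the threshold. H2-T10 (1.19) and Cd1d1 (-0.60), a lipid-presenting molecule, had the smallest p-values, the only 2 with an unadjusted limma p-value under 0.05 among the pathway genes at week 18, against 5.97% of all genes. All 9 other loading and trimming genes were higher with a median of 0.19, none past the threshold, led by Pdia3 (0.36), an endoplasmic reticulum thiol oxidoreductase of the loading complex, and Psme2 (0.27), an activator subunit of the proteasome. The constitutive subunits Psmb5, Psmb6 and Psmb7 had log2 fold changes of 0.25, 0.20 and 0.36. Among 17 regulators Rfxap, a subunit of the X box factor, and Nfyc, a subunit of the CCAAT box factor, had the smallest p-values, with log2 fold changes of 0.29 and 0.33. Irf1 had 0.21.

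Interferon targets departed from the members in 1 library of week 18. Active replicate 1, the highest library for 6 members, had summed type I targets of 7757 normalized reads, whereas the other active tumours had 18625 and 23683. The other 5 libraries had the same order in the mean log2 value of the members and of the type I targets, from sedentary replicate 1, with summed targets of 5409, to active replicate 2. As a list, 9 of 10 type I targets were higher in active tumours with a median of 0.51 and none past the threshold, led by Ifit2 (0.80) and Isg15 (0.69). Of 10 interferon-gamma targets 9 were higher, none past the threshold, and the smallest p-values were those of Ido1, a tryptophan-degrading enzyme (-1.89), and the guanylate-binding protein Gbp3 (0.86). Summed leukocyte markers were 17227 to 18548 in active and 10048 to 15135 in sedentary tumours of week 18. Their mean log2(value + 1) overlapped, at 10.40, 10.78 and 10.65 in active and 9.62, 10.83 and 10.71 in sedentary replicates 1 to 3. Summed T cell markers were 1114 to 1190 in active and 890 to 1622 in sedentary tumours. The part of these cells in the members' values at week 18 was not tested.

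The difference between the activity effects of week 18 and week 12 was tested over all 12 tumours. Its largest values among the members were 0.88 (standard error 0.51) for Psmb8 and 0.71 (standard error 0.55) for B2m, with limma adjusted p-values of 0.770 and 0.774. The median was 0.43, 9 of 10 members were positive, and 0 of 10 passed with limma, edgeR or DESeq2, with no unadjusted limma p-value under 0.05. Of all genes tested, 0.0104% passed. The median was 0.15 without sedentary replicate 1 of week 18 and 0.73 without active replicate 3 of week 12. Psmb5, Psmb6 and Psmb7 had differences of 0.35, 0.49 and 0.46.

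Between the weeks, sedentary tumours had a lower mean at week 18 for all 10 members. Nlrc5 had 442, 742 and 395 normalized reads at week 18, after 500, 978 and 1051 at week 12, with a log2 fold change of -0.66 (standard error 0.39). Tap1 had 1431, 2726 and 2297 at week 18 and 3166, 2674 and 3147 at week 12, with -0.52 (standard error 0.27), and Psmb8 also had -0.52 (standard error 0.27). The groups of Nlrc5 and Tap1 overlapped. The members' median was -0.44, against -0.02 over all genes. With limma, edgeR and DESeq2 0 of 10 passed, as did 0% of all genes with limma, and no member had an unadjusted p-value under 0.05. No member was without overlap, compared with 10.4% of genes. Without sedentary replicate 1 of week 18 the median was -0.15, with all 10 members still lower. Without sedentary replicate 2 of week 18 it was -0.71. All 10 type I interferon targets and all 10 interferon-gamma targets were also lower at week 18, with medians of -1.12 and -0.64, and none passed with limma, 1 type I target having an unadjusted p-value under 0.05, as did 4.98% of all genes. Summed skeletal muscle markers also separated these groups, at 44161 to 97228 in week 12 and 340 to 8138 in week 18, and their part in the members' values was not tested. Irf1 had a log2 fold change of 0.02, and Psmb5, Psmb6 and Psmb7 had 0.15, 0.04 and 0.04.

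In active tumours the members had no common direction between the weeks, and this rested on 1 library. Their median log2 fold change was 0.02, 5 were higher and 5 lower at week 18, and they ranged from -0.63 for Nlrc5 to 0.36 for Psmb8. Without active replicate 3 of week 12 all 10 members were higher at week 18, with a median of 0.28. None passed with limma, edgeR or DESeq2, and none had an unadjusted limma p-value under 0.05. Of all genes 0% passed with limma. No member was without overlap, compared with 24.9% of genes. The constitutive subunits differed more evenly. Psmb5 had 2054, 2164 and 1790 normalized reads at week 12 and 3336, 2437 and 2762 at week 18. Psmb5, Psmb6 and Psmb7 had log2 fold changes of 0.50, 0.54 and 0.49, each without overlap between the weeks, at a limma adjusted p-value of 0.412 for all 3. Of the transcript windows of Psmb5, 54.1% are shared with other genes, mainly Gm3375 (46.8%) and Mir686 (6.69%), so its counts are uncertain.

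The members varied together across the tumours. Of 45 pairs of members, 42 had a Pearson r above 0.5 over the 12 libraries and none was below 0, with a median of 0.754. H2-K1 and B2m had an r of 0.943. Among 13628 genes with a mean of at least 50, the 5 that tracked the members' mean z-score most closely were H2-Q5 (r = 0.975), H2-Q4 (0.953), H2-Q7 (0.951), H2-Q6 (0.941) and Fam129a (0.930). The H2-Q genes share transcript sequence with H2-K1 and H2-D1. Libraries share depth and cell content across genes, and these correlations are descriptions. Without sedentary replicate 1 of week 18, the library farthest from the rest, H2-Q7 came first (0.966).

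In HSC the members did not vary together in this way. Over the 8 libraries other than active replicate 2, the median r between members was 0.268. Of 45 pairs, 19 were above 0.5 and 16 below 0. The genes nearest to the members' mean were Cdk1 (0.986), the main mitotic kinase, Ccz1 (0.984), Esd (0.984), Mettl9 (0.978) and Ccdc25 (0.972), among 10862 genes. No H2 gene was among them.

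**Figure D4:**
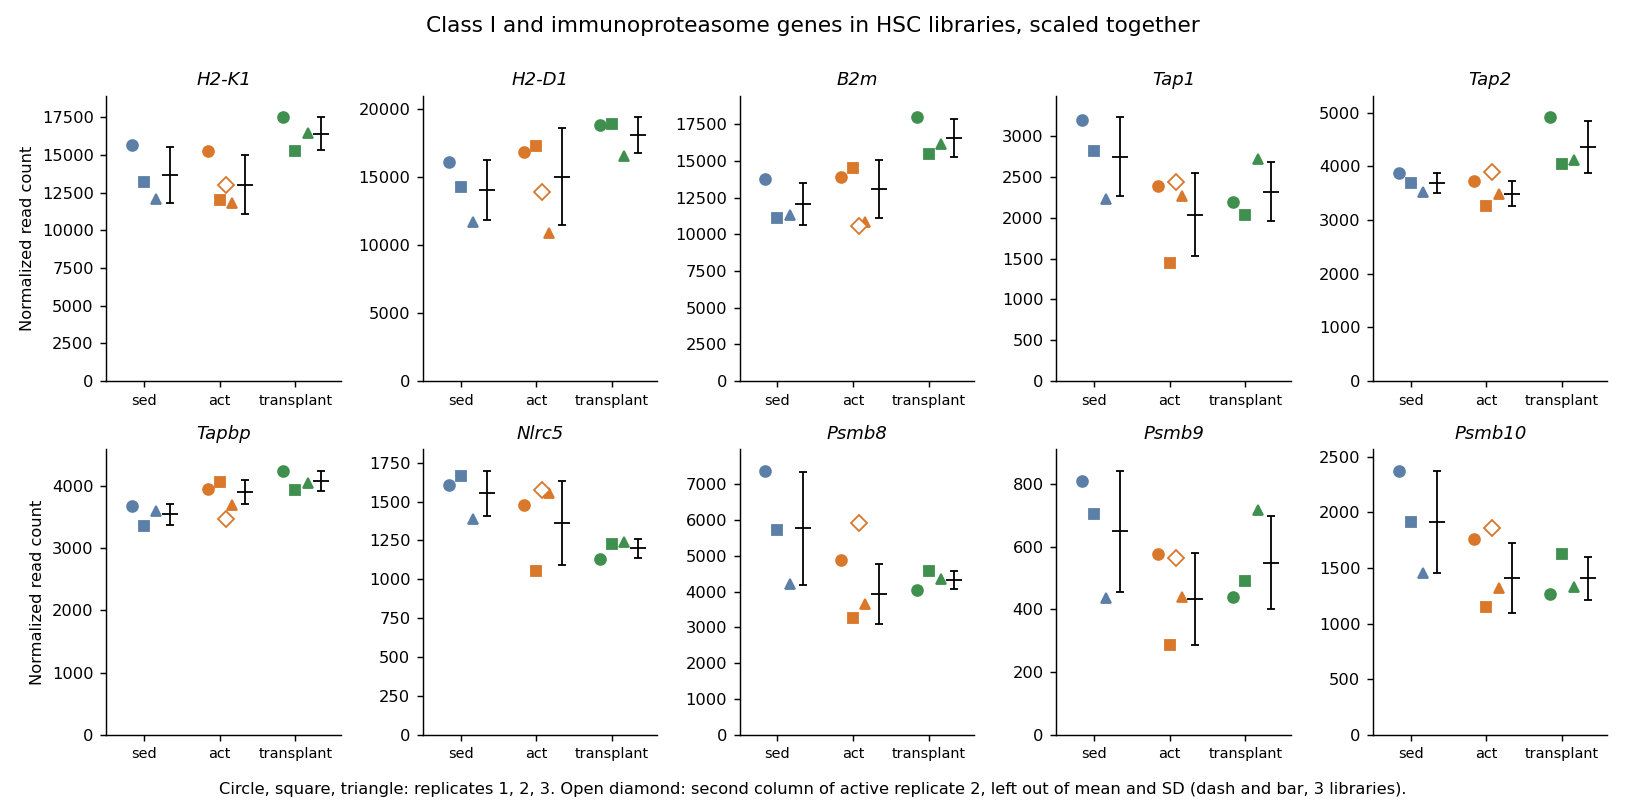
Normalized read count of each member in the HSC libraries, all scaled together by the median of ratios, on linear axes from 0, with the mean and SD of 3 libraries beside each group. With all libraries on 1 scale, the filled square of the active group is the column of the sedentary and active table, and the open diamond is the column of the active and transplant table for the same library. All 3 transplant libraries of B2m lie above, and those of Nlrc5 below, every sedentary library.

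Across the HSC groups the members took 2 orders. Transplant HSC had the highest mean of H2-K1, H2-D1, B2m, Tap2 and Tapbp, and sedentary HSC the highest mean of Nlrc5, Tap1, Psmb8, Psmb9 and Psmb10. B2m, for example, had means of 12068 ± 1457 in sedentary, 13098 ± 1976 in active and 16558 ± 1294 in transplant HSC, and Nlrc5 had 1553 ± 148, 1361 ± 271 and 1199 ± 61.5 (SD, n = 3 each). The active means here use the column of the sedentary and active table. With the other column of active replicate 2, an alternative chosen after seeing the data, the highest groups were as before, but the mean of B2m in active HSC was 11774 ± 1833 (SD, n = 3), below that in sedentary HSC. Of the groups next to each other in the first orders, only 3 pairs did not overlap, transplant above the next group for B2m and Tap2, and active above sedentary for Tapbp. With the other column Tapbp overlapped between active and sedentary HSC, and 4 pairs did not overlap, transplant above the next group for B2m, Tap2 and H2-D1 and below it for Nlrc5.

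HSC of active and sedentary mice differed most at the immunoproteasome genes and Tap1, where the active means were lower. Psmb8 had 6726, 5205 and 3814 normalized reads in sedentary replicates 1 to 3 and 4453, 2968 and 3312 in active replicates 1 to 3. Psmb9 had 737, 643 and 394 in sedentary and 525, 260 and 397 in active HSC. In both genes sedentary replicate 3 lay within the active range. The log2 fold changes were -0.54 (standard error 0.27) for Psmb8, -0.59 (standard error 0.35) for Psmb9, -0.45 (standard error 0.25) for Tap1 and -0.44 (standard error 0.25) for Psmb10. Their limma adjusted p-values lay between 0.475 and 0.491. B2m, H2-D1 and H2-K1 had log2 fold changes of 0.11, 0.08 and -0.07.

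With limma, edgeR and DESeq2 0 of 10 members passed in this comparison, none had an unadjusted limma p-value under 0.05, and 0% of 13513 genes passed with limma. In the authors' deposited table Psmb8 had an unadjusted p-value of 0.0281 and an adjusted p-value of 0.253. With DESeq2 on the recovered reads, 1964 genes had an unadjusted p-value under 0.05, with 12437 genes tested. In the scaling of this table no member was without overlap, compared with 19.7% of genes. Tapbp, apart when all HSC were scaled together, overlapped here, its lowest active library at 3340 and its highest sedentary library at 3350. The median was -0.14, with 7 members lower. With the other column of active replicate 2 the median was -0.03, and the log2 fold changes of Psmb8, Psmb9, Tap1 and Psmb10 were -0.25, -0.26, -0.20 and -0.20. Without the deep replicates numbered 3 they were -0.70, -0.90, -0.69 and -0.58. The constitutive subunits were also lower in active HSC, with -0.15 for Psmb5, -0.28 for Psmb6 and -0.27 for Psmb7. None of the other pathway genes passed with limma, while 1 other heavy chain, 3 regulators and 2 type I interferon targets had an unadjusted p-value below 0.05, as did 9.27% of all genes. Jak2 and Ifngr1, the kinase and the ligand-binding chain of the interferon-gamma receptor, had the smallest p-values among the regulators, with log2 fold changes of 0.60 and 0.61. The smallest p-values of the other lists were those of H2-T24 (0.63) and H2-Q7 (-0.43), of the peptide-trimming aminopeptidase Erap1 (-0.43) and Psme1 (-0.35), and of the interferon targets Ciita (2.18), Gbp3 (-0.44), Rtp4 (-1.41) and Rsad2 (1.28). Irf1 had -0.14. With the first column of active replicate 2, summed neutrophil lineage genes separated these groups as well. They were 103126 to 328031 in active and 53221 to 79998 in sedentary HSC, with none of the 7 at 0. Summed erythroid and megakaryocyte genes did so at 3207 to 14674 and 1644 to 3023. The other column of active replicate 2 had sums of 60733 and 2515 in its own table, which is scaled separately. Both separations therefore depend on the column used. The part of these cells in the members' values was not tested.

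Transplant HSC had more B2m than either other group. In the table of active and transplant HSC, B2m had 13788, 10520 and 10865 normalized reads in active replicates 1 to 3 and 17896, 15416 and 16034 in transplant replicates 1 to 3. Nlrc5 had 1468, 1565 and 1555 in active and 1121, 1222 and 1229 in transplant HSC. Neither gene's groups overlapped, and they moved in opposite directions. The log2 fold change was 0.50 (standard error 0.15) for B2m and -0.36 (standard error 0.10) for Nlrc5. The limma adjusted p-values of 0.217 and 0.209 missed the threshold. In the authors' deposited table the adjusted p-values were 0.0244 and 0.0498, and DESeq2 on the recovered reads gave 0.0241 and 0.0493. Over all genes, DESeq2 called 1107, with 12819 tested.

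H2-K1 had 15190, 12949 and 11824 normalized reads in active and 17381, 15192 and 16362 in transplant HSC, just without overlap, with a log2 fold change of 0.30. Tap2 had 3698, 3861 and 3497 in active and 4887, 4022 and 4077 in transplant HSC, also without overlap, with 0.23. H2-D1 overlapped, with 0.40. Psmb8, Psmb9 and Psmb10 had -0.14, 0.03 and -0.23. Thus 3 members were higher and 1 lower without overlap, compared with 25.2% of genes tested in either direction. With limma and edgeR 0 of 10 members passed, and 0.0513% of 13633 genes passed with limma. An unadjusted limma p-value below 0.05 was found for 2 of 10 members and for 17.8% of all genes. With the replicate numbers as a block, 0 genes passed. With the column of the sedentary and active table for active replicate 2, 9 members were higher, B2m had 0.35 and Nlrc5 -0.16, and limma adjusted p-values were 1. Scaled with all HSC libraries, Nlrc5 stood at 1051 in that column of active replicate 2 and at 1128 to 1239 in transplant HSC, so that its groups then overlapped.

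Transplant and sedentary HSC were compared after joining the recovered reads of both tables, which leaves out the doubtful library. The class I chains were higher in transplant HSC. B2m had 13650, 11026 and 11257 normalized reads in sedentary and 17878, 15389 and 16032 in transplant HSC. H2-D1 had 16006, 14147 and 11613 in sedentary and 18650, 18717 and 16388 in transplant HSC. Neither gene's groups overlapped. The log2 fold changes were 0.46 (standard error 0.13) for B2m, 0.37 (standard error 0.15) for H2-D1 and 0.27 (standard error 0.14) for H2-K1, whose groups overlapped.

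The loading genes Tap2 and Tapbp were also higher without overlap. Tap2 had 3851, 3655 and 3485 normalized reads in sedentary and 4882, 4015 and 4077 in transplant HSC, with a log2 fold change of 0.23. Tapbp had 3654, 3340 and 3573 in sedentary and 4225, 3905 and 4023 in transplant HSC, with 0.20. Every transplant library was above every sedentary one for these genes, although the differences were small. Nlrc5, the regulator, was lower without overlap, with 1593, 1656 and 1375 in sedentary and 1120, 1219 and 1229 in transplant HSC, and a log2 fold change of -0.37 (standard error 0.12).

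The immunoproteasome genes and Tap1 were lower on average, with overlap. Psmb8 had 7338, 5670 and 4178 normalized reads in sedentary and 4017, 4530 and 4326 in transplant HSC. Sedentary replicate 3, one of the deep libraries, lay within the transplant range. The log2 fold changes were -0.38 (standard error 0.22) for Psmb8, -0.43 for Psmb10, -0.24 for Tap1 and -0.23 for Psmb9. Without the replicates numbered 3 these were -0.60, -0.57, -0.51 and -0.70.

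In transplant against sedentary HSC, 0 of 10 members passed with limma, while 11.6% of 13350 genes did. B2m had an adjusted p-value of 0.0794 and Nlrc5 of 0.101, and both had an unadjusted p-value under 0.05, as did 31.7% of all genes. The edgeR quasi-likelihood test on the recovered reads called B2m (adjusted p-value 0.0325), and DESeq2 called B2m (adjusted p-value 0.00541) and Nlrc5 (adjusted p-value 0.0377). These tests also called more of all genes than limma did. DESeq2 called 3187 genes, with 12821 tested, and the count of edgeR is given in the last section. Without overlap were 4 members higher and 1 lower, 5 of 10, compared with 38.8% of genes. The median was -0.01, with 5 members higher and 5 lower.

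**Figure D5:**
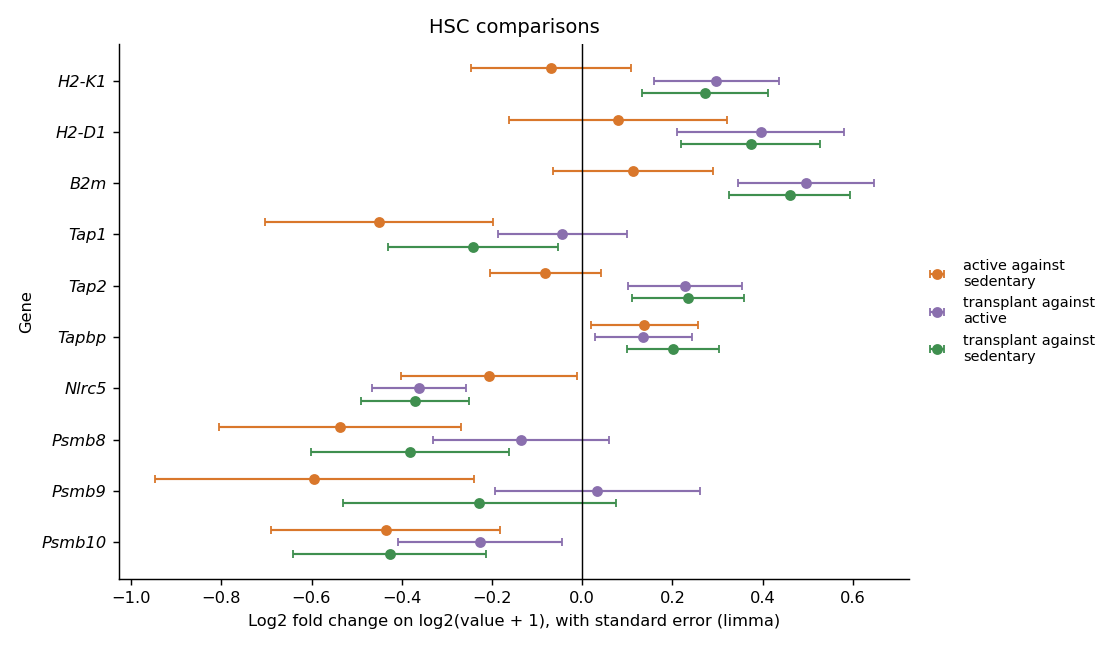
Log2 fold change of each member in 3 HSC comparisons, with its standard error from limma. The comparisons share libraries in pairs and are set side by side only as values. In the comparison of transplant with sedentary HSC, H2-K1, H2-D1, B2m, Tap2 and Tapbp lie above 0 and the other 5 members below it.

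Several other genes of the pathway passed the limma threshold between transplant and sedentary HSC, as did 11.6% of all genes. An unadjusted limma p-value below 0.05 was found for 31.7% of all genes. H2-Q7, a nonclassical class I chain, rose by a log2 fold change of 0.89 (limma adjusted p-value 0.0264), from 411 ± 48.7 to 762 ± 107 normalized reads (SD, n = 3), the only 1 of 9 other heavy chains tested to pass. It shares sequence with H2-K1 and H2-D1. Of 17 regulators, 1 rose and 2 fell. Ifngr1 rose by 0.96 (limma adjusted p-value 0.0157), while Irf8, an interferon regulatory factor of the myeloid lineage, fell by 1.48 (limma adjusted p-value 0.00909) and Nfya, a subunit of the CCAAT box factor, fell by 0.50 (limma adjusted p-value 0.0403). Irf1 had -0.20, and Psmb5, Psmb6 and Psmb7 had -0.03, -0.28 and -0.28. None of 9 other loading and trimming genes passed, 3 having an unadjusted p-value below 0.05, with Calr (0.38), a chaperone of the loading complex, and Erap1 (-0.64) the nearest. Of 9 type I interferon targets, Ifit2 (1.06), Rsad2 (1.86) and Usp18 (1.43) rose and Rtp4 fell by 2.05. None of 8 interferon-gamma targets passed, 2 having an unadjusted p-value below 0.05, with Cd274 (1.11), which encodes the checkpoint ligand PD-L1, and Ciita (2.50), the class II transactivator related to Nlrc5, the nearest.

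In transplant against active HSC none of these lists had a gene past the limma threshold, although 2 of 10 other heavy chains, 3 of 17 regulators, 2 of 8 interferon-gamma targets and 4 of 9 type I targets had an unadjusted p-value below 0.05, read against 17.8% of all genes. The smallest p-values were those of H2-Q7 (1.11) and Mr1 (0.78), which presents vitamin metabolites, of Irf8 (-1.25) and Nfya (-0.43), of Calr (0.32) and Pdia3 (0.31), of Cd274 (0.94) and Igtp (0.52), and of Ifit2 (1.12) and Usp18 (1.09). Psmb5, Psmb6 and Psmb7 had 0.10, -0.10 and -0.12, and Irf1 had -0.19.

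Marker genes of several cell types also differed between these HSC groups. Cell number and RNA per cell cannot be told apart here. All 7 neutrophil lineage genes passed as higher in transplant than in sedentary HSC, with a median log2 fold change of 4.36, as did 3 of 5 erythroid and megakaryocyte genes tested. Of 8 stem cell markers, 3 passed as lower and 1 as higher. Over all genes 11.6% passed in either direction. In the table of active and transplant HSC, summed neutrophil markers were 243177 to 309577 normalized reads in transplant and 60733 to 190570 in active HSC. The column of active replicate 2 in the other table had the highest summed neutrophil value of that table, 328031, and the lowest Nlrc5 value. The part of cell content in the members' values was not tested.

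The balance between immunoproteasome and constitutive subunits was taken as the log2 ratio within each library, which does not depend on scaling. Its mean over Psmb8 to Psmb5, Psmb9 to Psmb6 and Psmb10 to Psmb7 was -1.20 ± 0.30 in sedentary and -0.90 ± 0.66 in active tumours of week 12, and -1.53 ± 0.51 and -1.34 ± 0.34 at week 18 (SD, n = 3 each). In HSC it was -1.13 ± 0.14 in sedentary and -1.28 ± 0.19 in transplant libraries. Active HSC had -1.42 ± 0.37 in the table with sedentary HSC and -1.21 ± 0.02 in the table with transplant HSC. On this mean all groups held fewer reads of the immunoproteasome subunits than of their counterparts. On group means, Psmb8 alone had more reads than its counterpart Psmb5 in HSC, with a ratio of 0.58 ± 0.14 in sedentary libraries. Active replicate 2 had a ratio of -0.27 in the table with sedentary HSC and of 0.55 in the table with transplant HSC. In week 12 tumours the ratio of Psmb8 to Psmb5 was 0.10 ± 0.23 in sedentary and 0.07 ± 0.71 in active libraries. The ratios are not corrected for length, and the principal transcript has 1628 bases for Psmb8 and 899 for Psmb5. Of the transcript windows of Psmb5, 54.1% are shared with other genes. Of 20 two-sided exact permutation tests over ratios and comparisons, none reached a Benjamini-Hochberg adjusted p-value below 0.75. With 3 libraries against 3 the smallest p-value possible is 0.1. It was reached in transplant against sedentary HSC for Psmb8 to Psmb5, where the ratio differed by -0.35 without overlap.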

How the data were processed

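The authors deposited 4 tables of normalized values (a signal: gene counts divided by 1 factor per library), with their log2 fold change, p-value and adjusted p-value. The build is mm10, per the submitters' processing notes, and the label descriptions name DEBrowser. The aligner, counter and strand setting were not given in the sources used here. Whole reads were recovered for 100% of values, within 0.05 of a read. The authors' fold changes of sedentary and active HSC were turned round to active over sedentary. Both tumour tables were on 1 scale. Comparisons across tables used recovered reads scaled together by the median of ratios.

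Members and lists were chosen with earlier results of these data known. limma 3.58.1 (R 4.3.3) was applied to log2(value + 1) for genes whose mean reached 1 in a compared group, with Benjamini-Hochberg adjustment over all genes and a threshold of 0.05. edgeR 4.0.16 and DESeq2 1.42.0 on recovered reads were alternatives, beside other filters, pseudocounts, scalings, a replicate block and leaving out libraries. Pathway genes past the threshold were named, otherwise the 2 with the smallest p-value per list. In the constitutive and member lists all were named. The limma step was tested on simulated counts, with changes larger than any among the members. That simulation cannot show how differences of the members' size fare. Labels with the same replicate number paired libraries, by correlated deviations above 0.1 in all 3 pairs, at week 18 in tumours (0.164, 0.159 and 0.139) and in transplant against active HSC (0.105, 0.116 and 0.318). If replicates are not separate animals, p-values measure technical spread. The values of 1 regulator are not reported here.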

Additional observations from a re-analysis of the deposited data

How the results depend on the processing

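The count of members past the threshold was 0 in every comparison with limma and stayed 0 under nearly every alternative. The exceptions were transplant against active HSC, where DESeq2 gave 2, and transplant against sedentary HSC, where edgeR and limma with an intensity trend gave 1 each and DESeq2 gave 2. Leaving out 1 library at a time gave 0 in all 8 comparisons. The fit with a replicate block changed no member's call, and B2m in transplant against active HSC kept 0.50 with a limma adjusted p-value of 0.184 in that paired fit. At week 12 in tumours, 2 of the 3 members followed singly (Psmb8, Psmb9 and Nlrc5) turned direction when a library was left out. Over fits without 1 library, Psmb8 ran from -0.45 to 0.084, the latter without active replicate 2, and Nlrc5 ran from -0.24, without active replicate 3, to 0.90. The members' median ran from -0.21 to 0.26 at week 12 and from 0.30 to 0.71 at week 18 in tumours over fits without 1 library. In transplant against active HSC it was 0.25 with the other column of active replicate 2.

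Counts of all genes past the threshold depended more on the test. DESeq2 called 208 genes at week 12 (limma 99), 52 at week 18 (limma 0), 174 for the difference between weeks (limma 2), 172 in sedentary and 892 in active tumours between weeks (limma 0 each), 257 in active against sedentary HSC (limma 0), 1107 in transplant against active HSC (limma 7) and 3187 in transplant against sedentary HSC (limma 1555). There, edgeR called 2571 and the replicate block 99. The block also gave 0 at week 12, 69 for the difference between weeks and 0 in transplant against active HSC, where edgeR gave 1. The cause was not tested. With 3 libraries per group, single libraries carry much of each mean.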
